A study of Mus musculus with 6 samples.

Results

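The caveolae, fenestrae and transcytosis genes described here are 10 genes taken by name from the deposited expression table: the caveolins Cav1 and Cav2, the cavins Cavin1, Cavin2 and Cavin3, the membrane-shaping genes Ehd2 and Pacsin2, the fenestral gene Plvap and the receptor genes Tfrc and Lrp1. Each name matched 1 row, so that 10 of 54532 genes in the table were followed, and 10 of 10 were among the 11277 genes tested. Expression had been measured by RNA-seq in endothelial cells sorted from mouse brain. All mice carried Df(h22q11)/+, the mouse counterpart of the heterozygous human 22q11.2 deletion, and were 12 to 16 weeks old. The untreated group ate irradiated base chow and the bezafibrate group chow with 0.5% bezafibrate, a fibrate drug that activates PPAR nuclear receptors, for 4 weeks. Each library pooled 3 brains of 1 sex. The untreated libraries are F_1, F_2 (female) and M_1 (male), and the bezafibrate libraries F_1 (female), M_1 and M_2 (male). All 6 libraries carry the deletion and wild-type mice were not analysed here, so no value below bears on the deletion itself.

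Caveolae are flask-shaped pits of the plasma membrane that carry cargo across endothelium. Caveolins insert into the inner leaflet and oligomerise, cavins form a coat over them, EHD2 rings the neck and holds the pit at the surface, and PACSIN2 bends the membrane. PLVAP builds the diaphragms of fenestrae and of caveolae in leaky vessels, and mature vessels of the blood-brain barrier keep it low. Receptor-mediated transcytosis uses clathrin instead: the transferrin receptor encoded by Tfrc brings iron into the brain, and LRP1 takes up lipoproteins and amyloid-beta. Low rates of caveolar vesicle traffic are a hallmark of brain endothelium.

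The sequences bear on how these genes are laid out and on the member whose mRNA is known to respond to iron. Cav2 and Cav1 lie head to tail on chromosome 6 with 17219 bases between them, and their promoters are shown with that of Ehd2, the caveolar member whose level differed most between libraries. Each is the 250 bases upstream of the RefSeq start site (GRCm38.p6), 5′ to 3′ on the gene's strand, with GC boxes (GGGCGG on either strand, overlapping matches included) in capitals. The windows are chr6:17306085-17306334 (plus strand) for Cav1, chr6:17280935-17281184 (plus strand) for Cav2 and chr7:15967536-15967785 (minus strand) for Ehd2.
Cav1: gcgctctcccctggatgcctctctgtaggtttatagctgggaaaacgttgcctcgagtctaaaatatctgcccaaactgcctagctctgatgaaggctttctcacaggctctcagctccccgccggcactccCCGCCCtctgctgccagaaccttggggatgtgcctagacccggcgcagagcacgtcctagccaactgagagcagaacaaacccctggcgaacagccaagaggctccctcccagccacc
Cav2: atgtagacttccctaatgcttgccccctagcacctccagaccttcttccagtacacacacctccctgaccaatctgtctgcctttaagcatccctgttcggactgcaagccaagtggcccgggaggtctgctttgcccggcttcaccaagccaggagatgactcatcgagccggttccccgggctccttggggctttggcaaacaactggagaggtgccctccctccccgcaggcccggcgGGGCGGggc
Ehd2: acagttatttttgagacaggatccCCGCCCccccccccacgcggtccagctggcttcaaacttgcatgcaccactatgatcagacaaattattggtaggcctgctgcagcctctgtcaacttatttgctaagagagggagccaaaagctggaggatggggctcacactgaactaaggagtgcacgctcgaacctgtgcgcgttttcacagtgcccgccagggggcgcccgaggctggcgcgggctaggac

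Promoter windows of 300 bases around the start site were found in RefSeq for 8 of the 10 genes, 13 windows in all. A GC box was present in 8 of 13, against 35.7% of 32851 windows of all genes. The windows of Cavin1 overlap almost wholly and share their GC box, and those of Tfrc overlap in part. Counted by gene, 7 of 8 had a GC box in a window. Genes with several windows have more chances of a match, and no share by gene was computed over all genes. The nuclear receptor hexamer AGGTCA, on either strand, was present in 1 of 13 (a downstream start of Pacsin2), against 16.3% of all windows. The direct repeat AGGTCANAGGTCA, the form that PPAR binds with RXR, was in none of the 13 and in 0.0396% of all windows. These are matches of letters within 300 bases only. Median GC content was 52.7% over all windows, and the Cav1, Cav2 and Ehd2 windows had 59.3%, 64.3% and 62.0%.

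Tfrc carries iron-responsive elements in the untranslated part at its 3′ end, hairpins whose binding by iron regulatory proteins protects the mRNA when iron is short. A search for C, 5 bases, the loop CAGTGN (N not G) and 5 bases pairing with the first 5 found 4 such hairpins in the Tfrc transcript, on the plus strand of chromosome 16 (GRCm38), where the table places the gene at 32608920 to 32632794. They are printed 5′ to 3′ in order along the transcript, with the loop in capitals.
Tfrc hairpin at chr16:32631225-32631241: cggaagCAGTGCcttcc
Tfrc hairpin at chr16:32631604-32631620: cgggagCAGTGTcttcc
Tfrc hairpin at chr16:32631669-32631685: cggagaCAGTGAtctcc
Tfrc hairpin at chr16:32631716-32631732: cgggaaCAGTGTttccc

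None of the other 9 genes had such a hairpin in its longest coding transcript, and 0.416% of 21899 coding genes had 1 or more at the 3′ end. At the 5′ end, where the same hairpin blocks translation, it was found in Fth1, Ftl1 and Slc40a1, the ferritin chains and the iron exporter, and in 0.0776% of coding genes.

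The depth was 16858130 to 20228619 recovered reads per library, and a member had between 642 (Lrp1) and 23137 reads (Cavin1) in a library. At 642 reads, counting error alone is 3.95%. Untreated M_1 and bezafibrate F_1 stood apart on the first principal component (scores of 30.3 and 24.4 against -22.6 to 1.62 in the other 4). Their composition ratio, the summed reads divided by the library size used for scaling, was 1.09 and 1.06 against 0.888 to 1.03. Both libraries enter each result below, and each member's difference without them is given beside its value. Endothelial markers were high in each library (12 of 12 tested, summed level 6614 to 11058 FPKM), the 2 highest sums being those of untreated M_1 and bezafibrate F_1. Slc2a1, the highest of these markers (5752 and 5337 FPKM in these libraries), had the same order over the 6 libraries as the sums. Single markers differed: Pecam1 was highest in untreated M_1 and bezafibrate F_1 (291 and 290.7 FPKM), whereas Tek was lowest in them (124 and 131). Of pericyte markers, which the gate on PDGFRb was meant to remove, 9 of 9 were tested, with sums of 195 to 343 FPKM in untreated and 187 to 265 in bezafibrate libraries. Of 6 fibroblast markers, 0 reached the filter and their sum was 2.20 to 3.67 FPKM. In bulk samples, fewer cells of a type and less RNA per cell cannot be told apart.

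**Figure D1:**
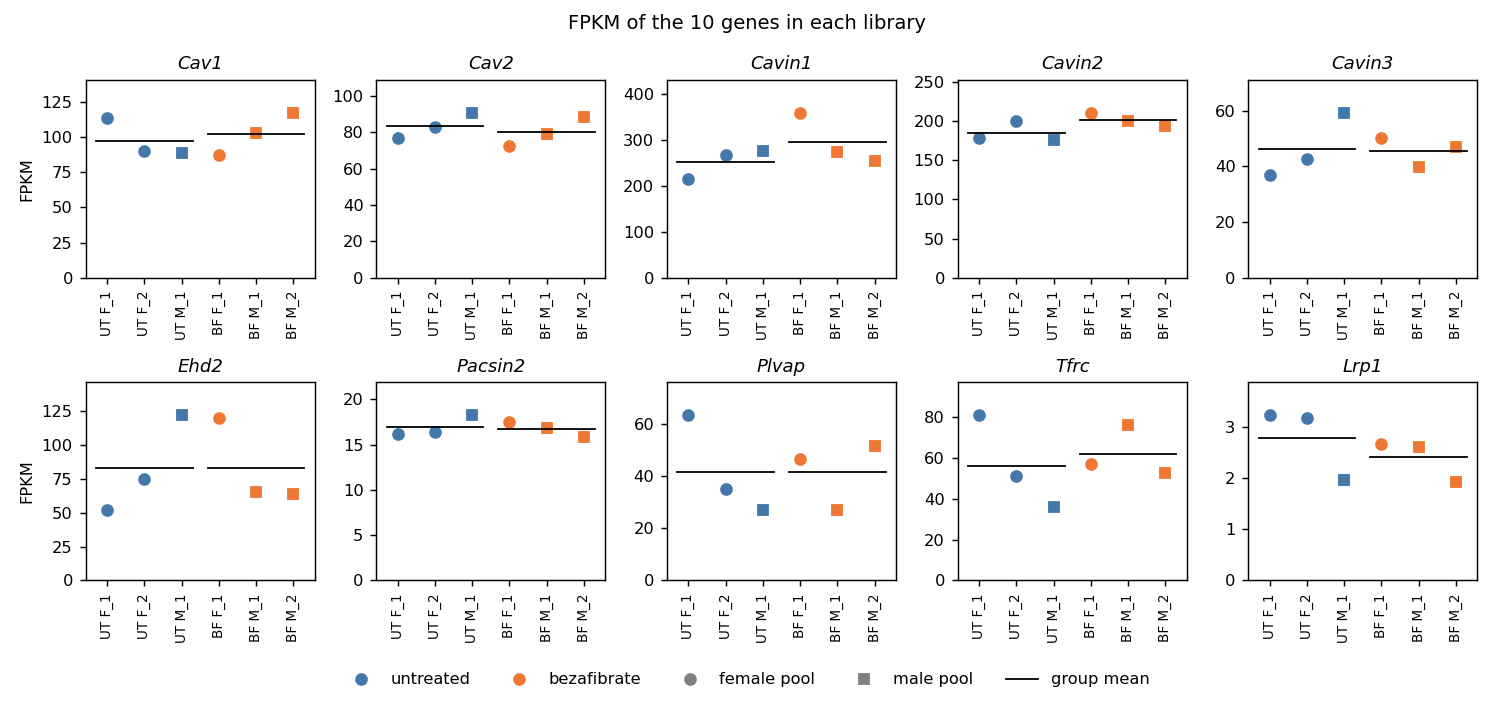
FPKM (reads scaled to the exon length of the gene and to library size) of each of the 10 genes in the 6 libraries. Untreated (UT) is in blue and bezafibrate (BF) in orange, circles for female and squares for male pools, with lines at group means. Points of both groups overlap in each of the 10 panels, and Ehd2 is highest in untreated M_1 and bezafibrate F_1.

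Bezafibrate changed none of the 10 genes past the threshold. Levels are in FPKM, and differences are bezafibrate minus untreated on the scale of log2(FPKM + 1), fitted with limma over all 11277 genes and called at a Benjamini-Hochberg adjusted p under 0.05. Of the members, 0 of 10 were called, 0 of 10 had an unadjusted p under 0.05 and 0 of 10 had groups that did not overlap. Over all genes the corresponding shares were 0.00887% (1 gene, Gm27616), 4.19% and 8.42%. A positive difference was found in 7 of 10 members, against 48.2% of all genes, and in 9 of 10 against 68.3% of all genes after rescaling to TPM. The median difference of the members was 0.033, beside -0.0091 for all genes. After rescaling to TPM the median of all genes moved to 0.10 and that of the members to 0.15. The lowest unadjusted p was 0.28, for Cavin1, and the adjusted p of the 10 genes was 0.999 each. The exact two-sided permutation p lay between 0.3 (Cavin2) and 1 (Cavin3, Ehd2 and Plvap), where 3 against 3 cannot go below 0.1.

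**Figure D2:**
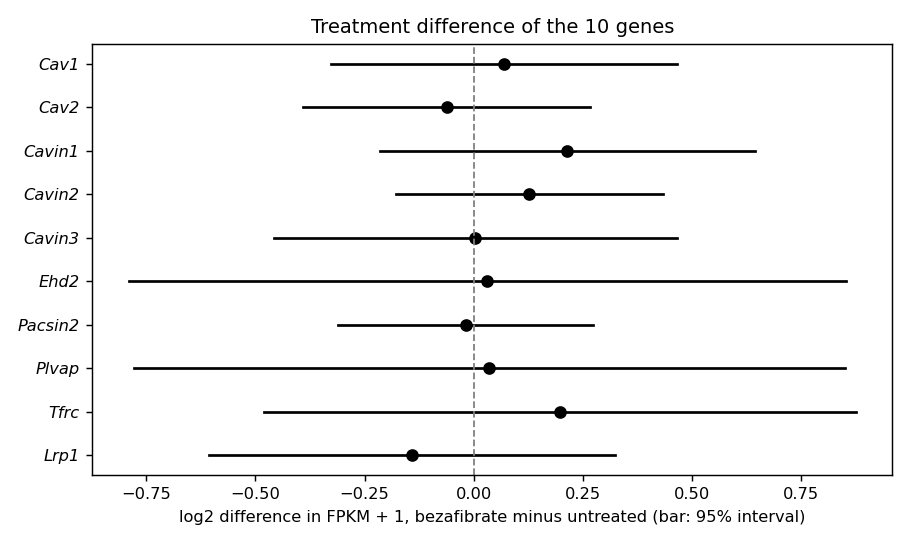
Difference between bezafibrate and untreated libraries on the log2(FPKM + 1) scale for each of the 10 genes (points, n = 3 and 3), with 95% intervals from limma (bars) and a dashed line at 0. Each interval covers 0, and those of Ehd2 and Plvap are the widest, from -0.79 to 0.85 and from -0.78 to 0.85.

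Caveolins were among the even members. Cav1, which encodes the principal caveolin and is required for endothelial caveolae (ENSMUSG00000007655, chromosome 6, 17306335 to 17341452), had 113, 89.6 and 88.8 FPKM in the untreated pools F_1, F_2 and M_1, against 86.7, 103 and 117 in the bezafibrate pools F_1, M_1 and M_2, respectively. The lowest and the highest library were both bezafibrate libraries, so the untreated range lay inside the treated one. Group means were 97.3 ± 14.0 and 102 ± 15.2 FPKM (SD, n = 3 each), a difference of 0.07 (SE 0.170, 95% interval -0.33 to 0.46) that did not exceed the spread between libraries. Without untreated M_1 and bezafibrate F_1 it was 0.12 (adjusted p = 0.898).

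Cav2, the partner that hetero-oligomerises with caveolin 1 (ENSMUSG00000000058, chromosome 6, 17281185 to 17289115), had 76.8, 83.2 and 90.9 FPKM in the untreated pools F_1, F_2 and M_1, against 72.4, 79.3 and 88.6 in the bezafibrate pools F_1, M_1 and M_2, respectively. Each group spanned low to high values and the groups overlapped over most of their range. The difference was -0.062 (SE 0.141, interval -0.39 to 0.27). It changed sign to 0.055 after rescaling to TPM, 0.044 under quantile scaling and 0.068 without untreated M_1 and bezafibrate F_1.

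The ratio of Cav2 to Cav1, both per length, was 0.677, 0.928 and 1.02 in the untreated pools F_1, F_2 and M_1, against 0.835, 0.771 and 0.757 in the bezafibrate pools F_1, M_1 and M_2, respectively. The neighbouring genes therefore did not keep a fixed ratio: untreated F_1 had the lowest and untreated M_1 the highest, and the bezafibrate values lay between them. Mean ratios were 0.876 ± 0.179 and 0.788 ± 0.0416. Summed caveolin FPKM was 181 ± 8.75 in untreated and 182 ± 23.2 in bezafibrate libraries.

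Cavin1 was the most abundant member in each of the 6 libraries. It encodes the cavin without which caveolae do not form (ENSMUSG00000004044, chromosome 11, 100956733 to 100970887), and had 215, 266 and 275 FPKM in the untreated pools F_1, F_2 and M_1, against 358, 273 and 253 in the bezafibrate pools F_1, M_1 and M_2, respectively. Bezafibrate F_1 stood above the other 5 libraries, while the other bezafibrate values fell within the untreated range. Means were 252 ± 32.3 and 294 ± 56.2 FPKM, and the difference, the largest of the members, was 0.21 (SE 0.185, interval -0.21 to 0.64, limma adjusted p = 0.999). It was 0.065 without bezafibrate F_1 and 0.13 (adjusted p = 0.889) without both libraries that stood apart.

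Cavin2, which shapes caveolar membrane in endothelium (ENSMUSG00000045954, chromosome 1, 51289126 to 51302960), was steadier. It had 178, 199.6 and 176 FPKM in the untreated pools F_1, F_2 and M_1, against 210.5, 199.5 and 194 in the bezafibrate pools F_1, M_1 and M_2, respectively. Untreated F_2 lay within the bezafibrate range, above 2 of its libraries, so the groups overlapped, while the other untreated libraries lay below it. The difference was 0.13 (SE 0.131, interval -0.18 to 0.43), and 0.061 (adjusted p = 0.948) without both libraries that stood apart, 0.052 with array weights and 0.25 after rescaling to TPM. The SD of Cavin2 over the 6 libraries, 0.102 on the log2 scale, was larger than that of 6.05% of the genes tested.

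Cavin3, the smallest cavin and a binding partner of protein kinase C delta (ENSMUSG00000037060, chromosome 7, 105480083 to 105482300), had 36.8, 42.7 and 59.3 FPKM in the untreated pools F_1, F_2 and M_1, against 50.3, 39.8 and 46.9 in the bezafibrate pools F_1, M_1 and M_2, respectively. Untreated F_1 was lowest and untreated M_1 highest, so that the bezafibrate values lay within the untreated range. The difference was 0.0038 (SE 0.199, interval -0.46 to 0.47), and 0.12 (adjusted p = 0.888) without both libraries that stood apart. Of its exon bases, 22.5% are shared with the antisense gene Gm45667, and since no source used here states whether counting used strand, reads of the pair cannot be told apart. None of the other 9 members shares exon bases with another gene in GENCODE M21.

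Cavins were present in unequal and shifting amounts. Cavin2 stood at 0.587 to 0.828 and Cavin3 at 0.140 to 0.216 of the FPKM of Cavin1. The ratio of Cavin1 to Cav1 ran from 1.90 in untreated F_1 to 4.13 in bezafibrate F_1, with group means of 2.66 ± 0.659 and 2.98 ± 1.03. The groups overlapped in each of these ratios.

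Ehd2 differed most between libraries of the 7 caveolar members. The gene encodes the ATPase at the caveolar neck (ENSMUSG00000074364, chromosome 7, 15946958 to 15967567), and had 51.9, 74.7 and 122 FPKM in the untreated pools F_1, F_2 and M_1, against 120.1, 65.6 and 64.0 in the bezafibrate pools F_1, M_1 and M_2, respectively. Untreated M_1 and bezafibrate F_1 were high and close to each other, and the other 4 lay between 51.9 and 74.7 FPKM. These were the libraries that stood apart over all genes, and the part of their composition in the Ehd2 values was not tested. The highest level was 2.35 times the lowest, and the SD of 0.503 (log2) was larger than that of 90.7% of genes tested. Means were 82.8 ± 35.7 and 83.3 ± 32.0 FPKM, a difference of 0.031 (SE 0.353) with an interval of -0.79 to 0.85. It was 0.35 without untreated M_1, -0.26 without bezafibrate F_1 and 0.057 (adjusted p = 0.961) without both.

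Pacsin2, an F-BAR protein that bends membrane at caveolae (ENSMUSG00000016664, chromosome 15, 83375607 to 83464606), was the most constant member. It had 16.2, 16.5 and 18.2 FPKM in the untreated pools F_1, F_2 and M_1, against 17.5, 16.8 and 15.8 in the bezafibrate pools F_1, M_1 and M_2, respectively. The highest level was 1.15 times the lowest, and 1.43% of genes tested had a smaller SD. The difference was -0.018 (SE 0.125, interval -0.31 to 0.27) and changed sign to 0.097 after rescaling to TPM and 0.0015 without both libraries that stood apart. The 2 genes of the neck therefore differed in spread: Pacsin2 stood at 0.311 of the FPKM of Ehd2 in untreated F_1 and at 0.145 in bezafibrate F_1.

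**Figure D3:**
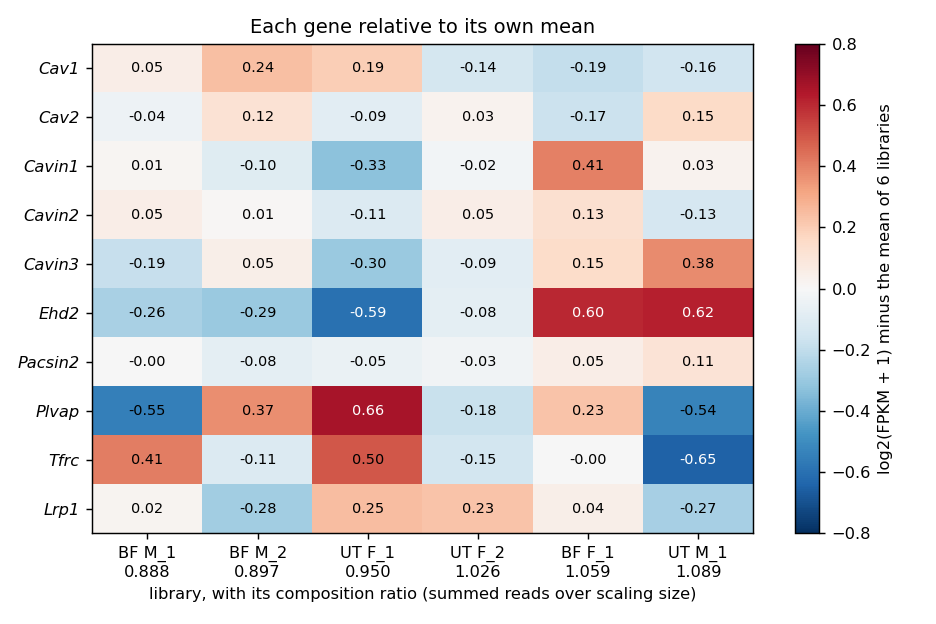
Level of each gene in each library relative to its own mean over the 6 libraries, in log2(FPKM + 1), with libraries ordered from left to right by composition ratio (printed under each). Ehd2 lies 0.60 and 0.62 above its mean in bezafibrate F_1 and untreated M_1, Cav1 lies 0.19 and 0.16 below its mean in them, and Plvap and Tfrc differ widely within both groups.

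Caveolar genes shared their direction in part. Cavin1, Cavin3 and Pacsin2 were above their means together with Ehd2 in untreated M_1 (by 0.026, 0.38 and 0.11) and in bezafibrate F_1 (by 0.41, 0.15 and 0.053). In untreated F_1 these 4 genes were below their means, but so were Cav2 (-0.087) and Cavin2 (-0.11), and Cav1 was above (0.19). The caveolins and Cavin2 differed from the 4 genes in untreated M_1 or bezafibrate F_1. In both libraries where Ehd2 was high, Cav1 was below its mean by 0.19 (bezafibrate F_1) and 0.16 (untreated M_1). Ehd2 to Cav1 was 1.39 and 1.37 in these 2 libraries and 0.457 to 0.833 in the other 4. Cav2 and Cavin2 took opposite sides of their means in the 2 libraries: Cav2 was above in untreated M_1 and below in bezafibrate F_1, and Cavin2 the reverse. The 7 caveolar genes together summed to 764 ± 71.1 FPKM in untreated and 824 ± 79.8 in bezafibrate libraries, with overlapping ranges.

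Plvap was detected in each library at a level that varied widely. The gene (ENSMUSG00000034845, chromosome 8, 71497765 to 71511752) had 63.3, 35.0 and 27.0 FPKM in the untreated pools F_1, F_2 and M_1, against 46.6, 26.8 and 51.7 in the bezafibrate pools F_1, M_1 and M_2, respectively. The lowest libraries, untreated M_1 and bezafibrate M_1, were close to each other. Untreated F_1 lay above the bezafibrate range, and the other untreated libraries lay within it. The difference was 0.035 (SE 0.350, interval -0.78 to 0.85), 0.37 without untreated F_1 and -0.33 (adjusted p = 0.863) without both libraries that stood apart. The values rest on 998 to 2529 reads in a library. The highest level was 2.36 times the lowest.

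Summed erythroid markers were highest in the libraries with the most Plvap, whereas summed venous markers were not, and single venous markers differed in order. The 3 libraries with the highest Plvap, untreated F_1, bezafibrate M_2 and bezafibrate F_1, also had the highest summed erythroid markers, 298, 149 and 117 FPKM against 45.4 to 64.6 in the other 3. Of the 5 erythroid markers 4 were tested. Venous markers (8 of 9 tested) had their highest sums, 236 and 230.3 FPKM, in untreated M_1 and bezafibrate M_1, where Plvap was lowest, and summed to 178 to 226 in the other 4. Choroid plexus and ependymal markers (8 of 10 tested) had their highest sums in bezafibrate M_2 (1031 FPKM) and bezafibrate M_1 (623), and 410 to 465 in the other 4. The part of these cells in the Plvap values was not tested. Per length, Plvap stood at 0.261 to 0.558 of the level of Cav1, with means of 0.418 ± 0.129 in untreated and 0.413 ± 0.140 in bezafibrate libraries.

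Tfrc lies on chromosome 16, which also carries the region deleted in Df(h22q11)/+, but 13830657 bases beyond Cldn5, a gene of that region. It had 80.9, 51.3 and 36.0 FPKM in the untreated pools F_1, F_2 and M_1, against 56.8, 76.0 and 52.7 in the bezafibrate pools F_1, M_1 and M_2, respectively (ENSMUSG00000022797). Both the highest and the lowest library were untreated, and the bezafibrate values lay within that range. The highest level was 2.25 times the lowest, a spread larger than that of 84.5% of genes tested. Means were 56.1 ± 22.8 and 61.8 ± 12.4 FPKM, a difference of 0.20 (SE 0.291, interval -0.48 to 0.88) that became 0.50 without untreated F_1, -0.077 without untreated M_1 and -0.025 (adjusted p = 0.988) without both libraries that stood apart. Reticulocytes also carry much transferrin receptor, and the erythroid sums above were highest in untreated F_1, where Tfrc was highest too, but bezafibrate M_1, with the next highest Tfrc, had an erythroid sum of 51.4 FPKM. The part of such cells in the Tfrc values was not tested.

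Lrp1 was the lowest member, at 3.23, 3.17 and 1.96 FPKM in the untreated pools F_1, F_2 and M_1, against 2.67, 2.62 and 1.93 in the bezafibrate pools F_1, M_1 and M_2, respectively. The gene (ENSMUSG00000040249, chromosome 10, 127538161 to 127621148, minus strand) has an exon length of 17717 bases, and its low FPKM still rests on 642 to 1149 reads in a library. Untreated M_1 and bezafibrate M_2 were lowest, and the groups overlapped. Means were 2.78 ± 0.716 and 2.40 ± 0.413 FPKM, a difference of -0.14 (SE 0.200, interval -0.61 to 0.32), which was -0.37 (adjusted p = 0.695) without both libraries that stood apart, -0.31 without untreated M_1, -0.036 without bezafibrate M_2 and -0.028 with sex as a covariate. Mural cells and neurons also express LRP1. The pericyte sums were 311, 343 and 195 FPKM in the untreated pools F_1, F_2 and M_1, against 238, 187 and 265 in the bezafibrate pools F_1, M_1 and M_2, respectively, so that the untreated libraries with more Lrp1 also had the higher pericyte sums, while in the treated group the order differed. The part of pericytes in the Lrp1 values was not tested. Tfrc stood at 16.2 to 29.0 times the FPKM of Lrp1.

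In order of mean FPKM over the 6 libraries the members were Cavin1 (273), Cavin2 (193), Cav1 (99.7), Ehd2 (83.0), Cav2 (81.8), Tfrc (58.9), Cavin3 (46.0), Plvap (41.7), Pacsin2 (16.8) and Lrp1 (2.59). Cavin1 was above Cavin2, Cavin2 above Cav1, Plvap above Pacsin2 and Pacsin2 above Lrp1 in 6 of 6 libraries, without overlap of ranges. From Cav1 to Plvap the ranges of neighbours overlapped, and Ehd2 was above Cav2 in 2 of 6 libraries. Among all genes tested, Cavin1 ranked 138th, Cavin2 182nd, Cav1 412th, Plvap 989th and Lrp1 8439th by mean FPKM.

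Sex was examined because the untreated group held 2 female pools and the bezafibrate group 1. With treatment as a covariate, limma called 0 of 10 members between male and female pools, against 0.0266% of all genes (3 genes, Ddx3y, Xist and Eif2s3y). Plvap had 48.3 ± 14.2 FPKM in female and 35.2 ± 14.3 in male pools (SD, n = 3 each), a male minus female difference of -0.54 (SE 0.342, interval -1.37 to 0.28). Lrp1 had 3.02 ± 0.306 and 2.17 ± 0.390 FPKM, a difference of -0.34 (SE 0.186, interval -0.79 to 0.11). Its female values, 2.67 to 3.23 FPKM, lay just above the male ones, 1.93 to 2.62. The share of such genes over all genes was not computed. Pericyte markers were also lower in male pools in 9 of 9 (median difference -0.39, 0 called), and their part in the Lrp1 values was not tested. Limma gave an adjusted p above 0.99 for each of the 10 members. The differences of the other 8 members ran from -0.34 (Tfrc) to 0.20 (Cav2).

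Other genes of caveolae and vesicle traffic gave no call either. Lists by role held 85 genes, of which 74 were tested: 0 were called and 3 had an unadjusted p under 0.05, against 0.00887% and 4.19% of all genes. Of the 74, 21 had a positive and 53 a negative difference, but 49 were positive after rescaling to TPM and 37 under quantile scaling, against 48.2%, 68.3% and 51.1% of all genes, so no direction is given for them. Their median was -0.072, beside -0.0091 over all genes, and 0.042 after rescaling to TPM, beside 0.10 over all genes. Groups did not overlap in 6 of 74 (3 higher and 3 lower), against 8.42% of all genes.

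**Figure D4:**
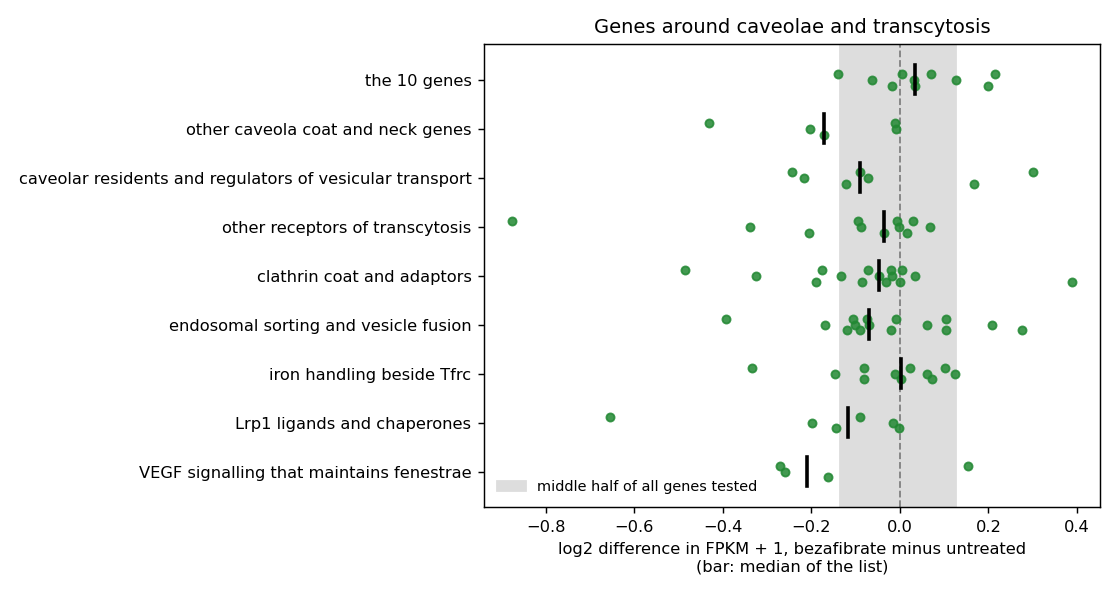
Difference between bezafibrate and untreated libraries on the log2(FPKM + 1) scale for the 10 genes and for the tested genes of 8 lists by role (points), with the median of each list (bar) and the middle range of all genes tested, -0.14 to 0.13, in grey. The 10 genes lie between -0.14 and 0.21, and each of the 8 lists has points on both sides of its median.

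Among other coat and neck genes, 5 of 9 were tested, with a median of -0.17. Of these, 5 of 5 were below 0, but 3 of 5 after rescaling to TPM. Cav3, the caveolin of muscle, was listed at 0 in each of the 6 libraries, whereas Cavin4, the cavin of muscle, had 4.08 ± 0.907 FPKM without and 2.76 ± 0.578 with bezafibrate, a difference of -0.43 that was not called. Ehd4, a relative of Ehd2, had 55.5 ± 16.4 and 49.7 ± 22.1 FPKM. Dynamin 2, the GTPase that severs vesicles, is encoded by Dnm2, which had 52.5 ± 3.69 and 52.1 ± 1.91 FPKM. It shares 3.88% of its exon bases with Tmed1.

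Caveolar residents and regulators (7 of 7 tested) had a median of -0.090, with 2 above and 5 below 0. Mfsd2a, a lysolipid transporter that holds caveolar transcytosis down at the barrier, had 326 ± 101 and 269.9 ± 55.3 FPKM, a difference of -0.24 within the spread of either group. The kinase gene Src had 3.16 ± 0.829 and 4.06 ± 0.116 FPKM. Flot1, of the flotillins that form another kind of membrane domain, had 20.8 ± 0.836 and 23.5 ± 1.02 FPKM without overlap of the groups, and Flot2 7.70 ± 0.229 and 7.0 ± 0.363, also without overlap and the other way, and neither was called.

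Of 14 other transcytosis receptors 11 were tested, with a median of -0.037. Lepr, the leptin receptor, had 6.15 ± 0.795 and 4.65 ± 0.501 FPKM without overlap. Bsg, whose product basigin is very abundant on brain endothelium, had 4466 ± 551 and 4183 ± 253 FPKM, and Fcgrt, the neonatal Fc receptor that carries IgG, 215 ± 21.5 and 210 ± 26.0.

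Clathrin coat and adaptor genes (15 of 17 tested) had a median of -0.048. The heavy chain gene Cltc had 60.7 ± 12.3 and 44.2 ± 15.6 FPKM, and the small adaptor subunit Ap2s1 21.0 ± 1.24 and 28.0 ± 4.66, a difference of 0.39 without overlap of the groups and without a call. Picalm, an adaptor that works with LRP1, had 77.4 ± 30.7 and 63.3 ± 32.8 FPKM. Of the genes for endosomal sorting and fusion (15 of 15 tested, median -0.070), the vesicle SNARE Vamp3 had 108 ± 17.7 and 82.5 ± 16.0 FPKM and Rab5a, of early endosomes, 17.9 ± 1.25 and 15.8 ± 1.57.

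Iron handling genes (11 of 12 tested) had a median of 0.0013, with 6 above and 5 below 0. Of those with the hairpin shown above, Fth1 had 876 ± 47.7 and 868 ± 29.8 FPKM, Ftl1 391 ± 58.1 and 352 ± 31.6, and Slc40a1 18.2 ± 1.97 and 19.0 ± 2.24. Heph, a ferroxidase that helps iron leave the cell, had 2.07 ± 0.145 and 1.44 ± 0.150 FPKM without overlap and without a call. Ftl1 shares 34.6% of its exon bases with other genes, and reads of ferritin genes may also match near-identical copies. How such reads were assigned is not given, so these values are uncertain.

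Of 7 Lrp1 ligand and chaperone genes 6 were tested, with a median of -0.12. Of these, 6 of 6 were below 0, but 3 of 6 after rescaling to TPM or under quantile scaling. App, the amyloid precursor gene, had 266 ± 14.2 and 241 ± 26.4 FPKM. Lrpap1, the chaperone of LRP1, had 22.9 ± 2.13 and 22.6 ± 1.43 FPKM. Of the VEGF genes that maintain fenestrae (4 of 4 tested, median -0.21), Kdr had 84.2 ± 12.0 and 69.4 ± 7.97 FPKM and Flt1 391 ± 33.8 and 331 ± 70.7. Vegfa, the ligand, had 1.82 ± 0.148 and 2.14 ± 0.182 FPKM, a difference of 0.15 in the other direction, without overlap of the groups and without a call. The median of this list was -0.097 after rescaling to TPM.

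Genes with the most similar profile over the 6 libraries were sought for each member among 10065 other protein-coding genes, by Pearson's r of log2(FPKM + 1). The 2 closest had r of 0.972 to 0.999 for each member, as a description with no p, since the libraries share their depth and composition differences and the maximum was taken over all genes. Ehd2 was followed most closely by Rflnb (0.999) and Lasp1 (0.997), which were also highest in untreated M_1 and bezafibrate F_1. Tfrc was nearest to C530008M17Rik (0.993) and Rxra (0.992), and Plvap to Polr3gl (0.976) and Acaa1a (0.972). Cav1 was nearest to Dnal1 (0.989) and Gramd3 (0.985), Cav2 to Clptm1 (0.988) and Slc10a3 (0.983), and Lrp1 to Ctdspl (0.993) and Slfn2 (0.989). Cavin1 was nearest to Sgpl1 (0.993) and Arntl (0.983), Cavin2 to Nup54 (0.988) and Map1s (0.988), Cavin3 to Agfg2 (0.993) and Parl (0.991), and Pacsin2 to Arhgap8 (0.996) and Gxylt1 (0.991). No member was among the 2 genes closest to another.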

How the data were processed

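RNA-seq was measured in 6 libraries of sorted brain endothelial cells (CD31+, CD45-, PDGFRb-), with SMART-Seq HT and single-end reads of 75 bases, per the labels' protocols. The authors deposited 1 table of FPKM values per gene, made after de-duplication and mapping with Salmon, per the labels' protocols, on GRCm38, per the submitters' processing notes. Not given in the sources used here: Salmon's version, the annotation, strand use and how the values were scaled. The title of untreated M_1 and its column differ in number, and the match rests on the description, which names the column. FPKM values gave whole reads for 100% of values (tolerance 0.01 reads).

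From these values, genes with at least 1 FPKM in at least 3 libraries were kept, and log2(FPKM + 1) was fitted with limma 3.58.1 (lmFit, eBayes with trend) in R 4.3.3, between treatments and, with treatment as covariate, between sexes. Fold changes of low genes come out too small on the log2(FPKM + 1) scale. P-values were adjusted by Benjamini-Hochberg over all genes tested, with a threshold of 0.05, and single members also had exact permutation tests. Each library is a separate pool of 3 brains, and p-values reflect how pools differ. Scaling, pseudocount, filter, covariates, array weights, limma-voom on recovered reads and left-out libraries were tried as alternatives.

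The 10 genes and the gene lists were chosen with earlier results of these data known. Of each list of other genes, the 2 with the smallest unadjusted p were named by rule, and of other protein-coding genes the 2 most correlated with each member. Cav3, Dnm2, Mfsd2a, Flot2, Bsg, Fcgrt, Picalm, Fth1, Slc40a1, Lrpap1 and Vegfa were added after their values were seen. The values of 2 genes that the rule names are not reported here. Annotation came from GENCODE M21 and promoters from RefSeq (Python 3.11.15, pandas 2.3.3).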

Additional observations from a re-analysis of the deposited data

How the results depend on the processing

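No member passed the threshold in 169 combinations of member and alternative, the lowest adjusted p being 0.653 (Lrp1, limma). The sign changed in 32 of them, and 2 members, Cavin1 and Cavin2, kept theirs in each alternative run. Rescaling gave 0.055 for Cav2 and 0.097 for Pacsin2 (TPM), 0.044 and 0.022 (quantile), and 0.049 and 0.092 (limma-voom). Sex as a covariate gave -0.055 for Cavin3, and array weights -0.046 for Ehd2 and -0.075 for Plvap. Without both untreated M_1 and bezafibrate F_1 the difference was 0.068 for Cav2, 0.0015 for Pacsin2, -0.33 for Plvap and -0.025 for Tfrc, and 0 genes were called over all genes. Leaving out 1 library at a time gave -0.033 to 0.18 for Cav1, -0.14 to 0.0072 for Cav2, -0.14 to 0.19 for Cavin3, -0.26 to 0.35 for Ehd2, -0.050 to 0.033 for Pacsin2, -0.22 to 0.37 for Plvap, -0.077 to 0.50 for Tfrc and -0.31 to -0.036 for Lrp1. It gave 0 to 3 genes called over all genes for treatment (3 without bezafibrate F_1, 0 without bezafibrate M_1 or M_2) and 1 to 4 for sex. Limma-voom called 0 genes for treatment. The causes of these changes were not tested.

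Sample titles share replicate numbers across groups in 2 pairs, with correlations of their deviations of -0.36 and -0.30. By its column number, untreated M_1 would instead pair with bezafibrate M_2 (-0.16). Such correlations over few libraries cannot show whether the libraries of a pair were handled together. With the replicate block the difference was -0.087 for Cav1, -0.061 for Cavin3, -0.22 for Plvap and 0.043 for Lrp1, and 0 genes were called over all genes. Untreated F_2 and bezafibrate M_2 have no partner by title, so these differences rest on the 2 pairs alone. Each pair holds a library that stood apart, and with so few pairs the lack of calls tells little. Lrp1 has no value at a minimum of 5 FPKM. Groups of 3 pools limit the precision. The 95% intervals of Ehd2 and Plvap span -0.79 to 0.85 and -0.78 to 0.85, so differences within these ranges are not excluded. These intervals are not limits of detection, since calls rest on p-values adjusted over all genes tested.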
